A study of Rattus norvegicus with 24 samples.

Results

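The genes described here encode the subunits of mitochondrial oxidative phosphorylation, with the assembly factors and regulators that share their symbols, measured in the dentate gyrus of aged and young rats. They were chosen by gene symbol alone: Nduf for complex I, Sdha to Sdhd for complex II, Uqcr for complex III, Cox4 to Cox8 for complex IV and Atp5 for complex V. On the arrays 86 genes matched by symbol, on 96 probe sets, and 77 of them lay above the filter on low values, each represented by its probe set with the highest mean. The whole table has 8737 tested genes with a single symbol. Total RNA of the microdissected dentate gyrus, the hippocampal field that holds the granule cells, was hybridised to rat expression arrays, and the deposited values are on a log2 scale. The groups were 7 aged impaired rats, 6 aged unimpaired rats and 8 young rats, all untreated male Long-Evans rats that were housed individually. Aged rats were 24 to 26 months old and young rats 6 months old. Performance in a water maze, where a rat learns to swim to a hidden platform, divided the aged rats: those within the range of young rats are called unimpaired and those that did worse impaired, and tissue was taken 2 weeks after testing. Each array is labelled as a separate biological replicate, and 3 further arrays, 1 per group, hold no values and were omitted by the submitters. The animals were selected from naturally aged rats, with no transgene, and the labels do not give each rat's own learning index.

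Oxidative phosphorylation passes electrons from NADH through complex I, or from succinate through complex II, to complex III and then through cytochrome c to complex IV, which reduces oxygen. Complexes I, III and IV pump protons across the inner mitochondrial membrane, and complex V, the ATP synthase, uses the gradient to make ATP. Most subunits are encoded in the nucleus and are measured here, while a core set is encoded in mitochondrial DNA and is not analysed here. In neurons the system supplies most of the ATP for ion pumping and synaptic transmission.

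Nuclear genes of the respiratory chain are known to carry binding sites for NRF1 and for ETS factors such as GABPA close to their start sites, so 4 promoters of the members are shown with these letters marked. They were read from RefSeq promoters of the GRCr8 assembly and cover 170 bases up to the start of the gene, printed 5′ to 3′ on the gene's strand. Capitals mark the NRF1 palindrome GCGCATGCGC or the ETS core CCGGAAGT, which reads ACTTCCGG where it lies on the opposite strand. None of the 4 stretches holds both. Ndufaf4, an assembly factor of complex I, lies on chromosome 5 (chr5:43401625-43401794, plus strand) and has the largest difference of the members between unimpaired and young rats. Uqcrh, the hinge protein of complex III, lies on chromosome 5 (chr5:134790883-134791052, minus strand) and is the member that was lower on each aged array than the mean of young arrays. Cox8a of complex IV lies on chromosome 1 (chr1:213833624-213833793, minus strand) and has the ETS core at 2 places. Atp5f1a, the alpha subunit of the ATP synthase, lies on chromosome 18 (chr18:73567367-73567536, plus strand).
Ndufaf4: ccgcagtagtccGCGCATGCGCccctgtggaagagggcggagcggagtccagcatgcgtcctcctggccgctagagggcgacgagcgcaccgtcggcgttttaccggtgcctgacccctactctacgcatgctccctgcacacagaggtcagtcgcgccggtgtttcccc
Uqcrh: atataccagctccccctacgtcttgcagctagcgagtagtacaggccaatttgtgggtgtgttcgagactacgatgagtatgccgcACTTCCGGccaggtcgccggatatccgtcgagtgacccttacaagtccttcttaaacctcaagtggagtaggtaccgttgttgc
Cox8a: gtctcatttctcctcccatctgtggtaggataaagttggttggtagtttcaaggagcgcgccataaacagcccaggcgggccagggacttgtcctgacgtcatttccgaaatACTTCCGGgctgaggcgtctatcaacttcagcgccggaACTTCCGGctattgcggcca
Atp5f1a: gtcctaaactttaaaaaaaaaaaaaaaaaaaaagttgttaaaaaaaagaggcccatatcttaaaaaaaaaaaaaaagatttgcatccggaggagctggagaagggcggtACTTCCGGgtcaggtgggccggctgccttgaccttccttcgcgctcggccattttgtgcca

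In the 250 bases before the start, searched on both strands, 5 of the 70 members with a RefSeq promoter held the NRF1 palindrome (7.14%), against 233 of all 27457 rat promoters (0.849%). These were Ndufa11, Ndufaf4, Ndufaf5, Atp5me and Atp5po. The looser form GCGCNTGCGC, which includes the palindrome, was found in 12 of 70 members (17.1%), against 4.17% of all promoters. A core one letter shorter, GCGCATGCG, was counted after these values had been seen: it was in 7 of 70 members, with Uqcrc1 and Atp5mg added, and in 1.49% of all promoters. The ETS core was found in 8 of 70 members (11.4%), against 3.29% of all promoters, and these were Ndufa13, Ndufb7, Ndufs1, Uqcrh, Uqcrq, Cox5b, Cox8a and Atp5f1a. The YY1 letters AAGATGGC were in 2.86% of members and 1.69% of all promoters, and the SP1 box GGGGCGGGG was in 5.71% and 9.74%. TATAAA was in 7 of 70 members and in 13.1% of all promoters. Promoters of members had a median G and C content of 56.0% and 16 CpG dinucleotides, against 52.0% and 6 over all promoters. A match describes these letters only, and base composition differs between the sets.

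The label of the tissue was checked against markers of dentate granule cells. Prox1 (10.55 to 11.05 over the arrays), Calb1 (10.92 to 11.62), Stxbp6, Neurod1, Plk5 and Dsp were above the filter, while Tdo2 and Pdzd2 were not. Of 8 markers of CA pyramidal neurons on the arrays, 7 were also above the filter, among them Nptx1 (12.47 to 12.97) and Wfs1 (3.31 to 6.79), but not Grp. These 7 had a mean level relative to the mean of all probe sets of -0.403 to -0.015 in aged impaired rats. It was -0.694 to -0.026 in aged unimpaired rats and -0.818 to 0.179 in young rats. All 12 general neuronal, 9 astrocyte and 10 oligodendrocyte markers were above the filter too, so these are values of mixed tissue. In bulk tissue, fewer cells of a type and less RNA per cell cannot be told apart. Of the meningeal markers 5 of 14 were above the filter (not Col1a1, Col1a2, Col3a1, Dcn or Lum among others), and these 5 had a mean level relative to the mean of all probe sets of -1.51 to 0.71 in aged impaired rats, of -1.50 to -1.25 in aged unimpaired rats and of -1.42 to -0.54 in young rats.

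Most of the genes were measured above the filter in the dentate gyrus. Of those matched by symbol, 39 of 42 of complex I, 4 of 4 of complex II, 7 of 7 of complex III, 11 of 17 of complex IV and 16 of 16 of complex V were above a log2 level of 4 on at least 6 arrays. Of the 9 genes under the filter, Cox6a2, Cox7a1 and Cox8b encode the heart and skeletal muscle forms of complex IV subunits, Cox6b2 and Cox7b2 are known as testis forms, and Cox4i2 encodes a form found mainly in lung. Cox7a1 was above the level on 1 array (3.38 to 4.06, median 3.44). The other 8, which include Ndufa4l2, Ndufaf1 and Ndufb8, did not exceed 2.98 on any array. Ndufb8 is a subunit of complex I in all tissues, so its probe set at 2.83 to 2.98 describes the probe set and not the gene's use. The members nearest to the filter from above were Cox6c-ps1, a pseudogene by name, at 4.78 to 4.97 (median 4.84) and Ndufaf7, an assembly factor of complex I, at 5.74 to 6.15. Among the 77, 8 are no subunits of the chain by their role or name: the assembly factors Ndufaf3, Ndufaf4, Ndufaf5, Ndufaf7 and Ndufaf8, Cox7a2l, which helps join complexes III and IV, the ATP synthase inhibitor Atp5if1, and Cox6c-ps1. Ndufa4 is counted with complex I by its symbol, although it is now known as a subunit of complex IV.

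Differences between groups were small for all of the members, and none of the 77 passed an adjusted p of 0.05 in limma in any of the 4 comparisons. Over all 15177 probe sets, limma called 0.514% in aged impaired minus young, 1.13% in aged unimpaired minus young, 0.0% in aged impaired minus aged unimpaired and 1.11% in the mean of both aged groups minus young. The members' log2 differences lay between -0.14 and 0.10 in aged impaired minus young, between -0.18 and 0.043 in aged unimpaired minus young and between -0.071 and 0.12 in aged impaired minus aged unimpaired. For the mean of both aged groups minus young they lay between -0.15 and 0.064. The median 95% interval reached 0.086, 0.090, 0.092 and 0.075 to either side of the difference in the same 4 comparisons. The interval lay within 0.25 of zero for 75, 75, 76 and 76 of the 77 members. The exceptions were Cox5a and Ndufaf5 in aged impaired minus young, Cox5a and Ndufaf4 in aged unimpaired minus young, Ndufaf5 in aged impaired minus aged unimpaired and Cox5a in the comparison of both aged groups with young. In no comparison were the arrays of 2 groups fully apart for a member, while over all probe sets this was so for 0.316%, 0.949%, 1.05% and 0.0857%. The comparisons with young rats share the young arrays.

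**Figure D1:**
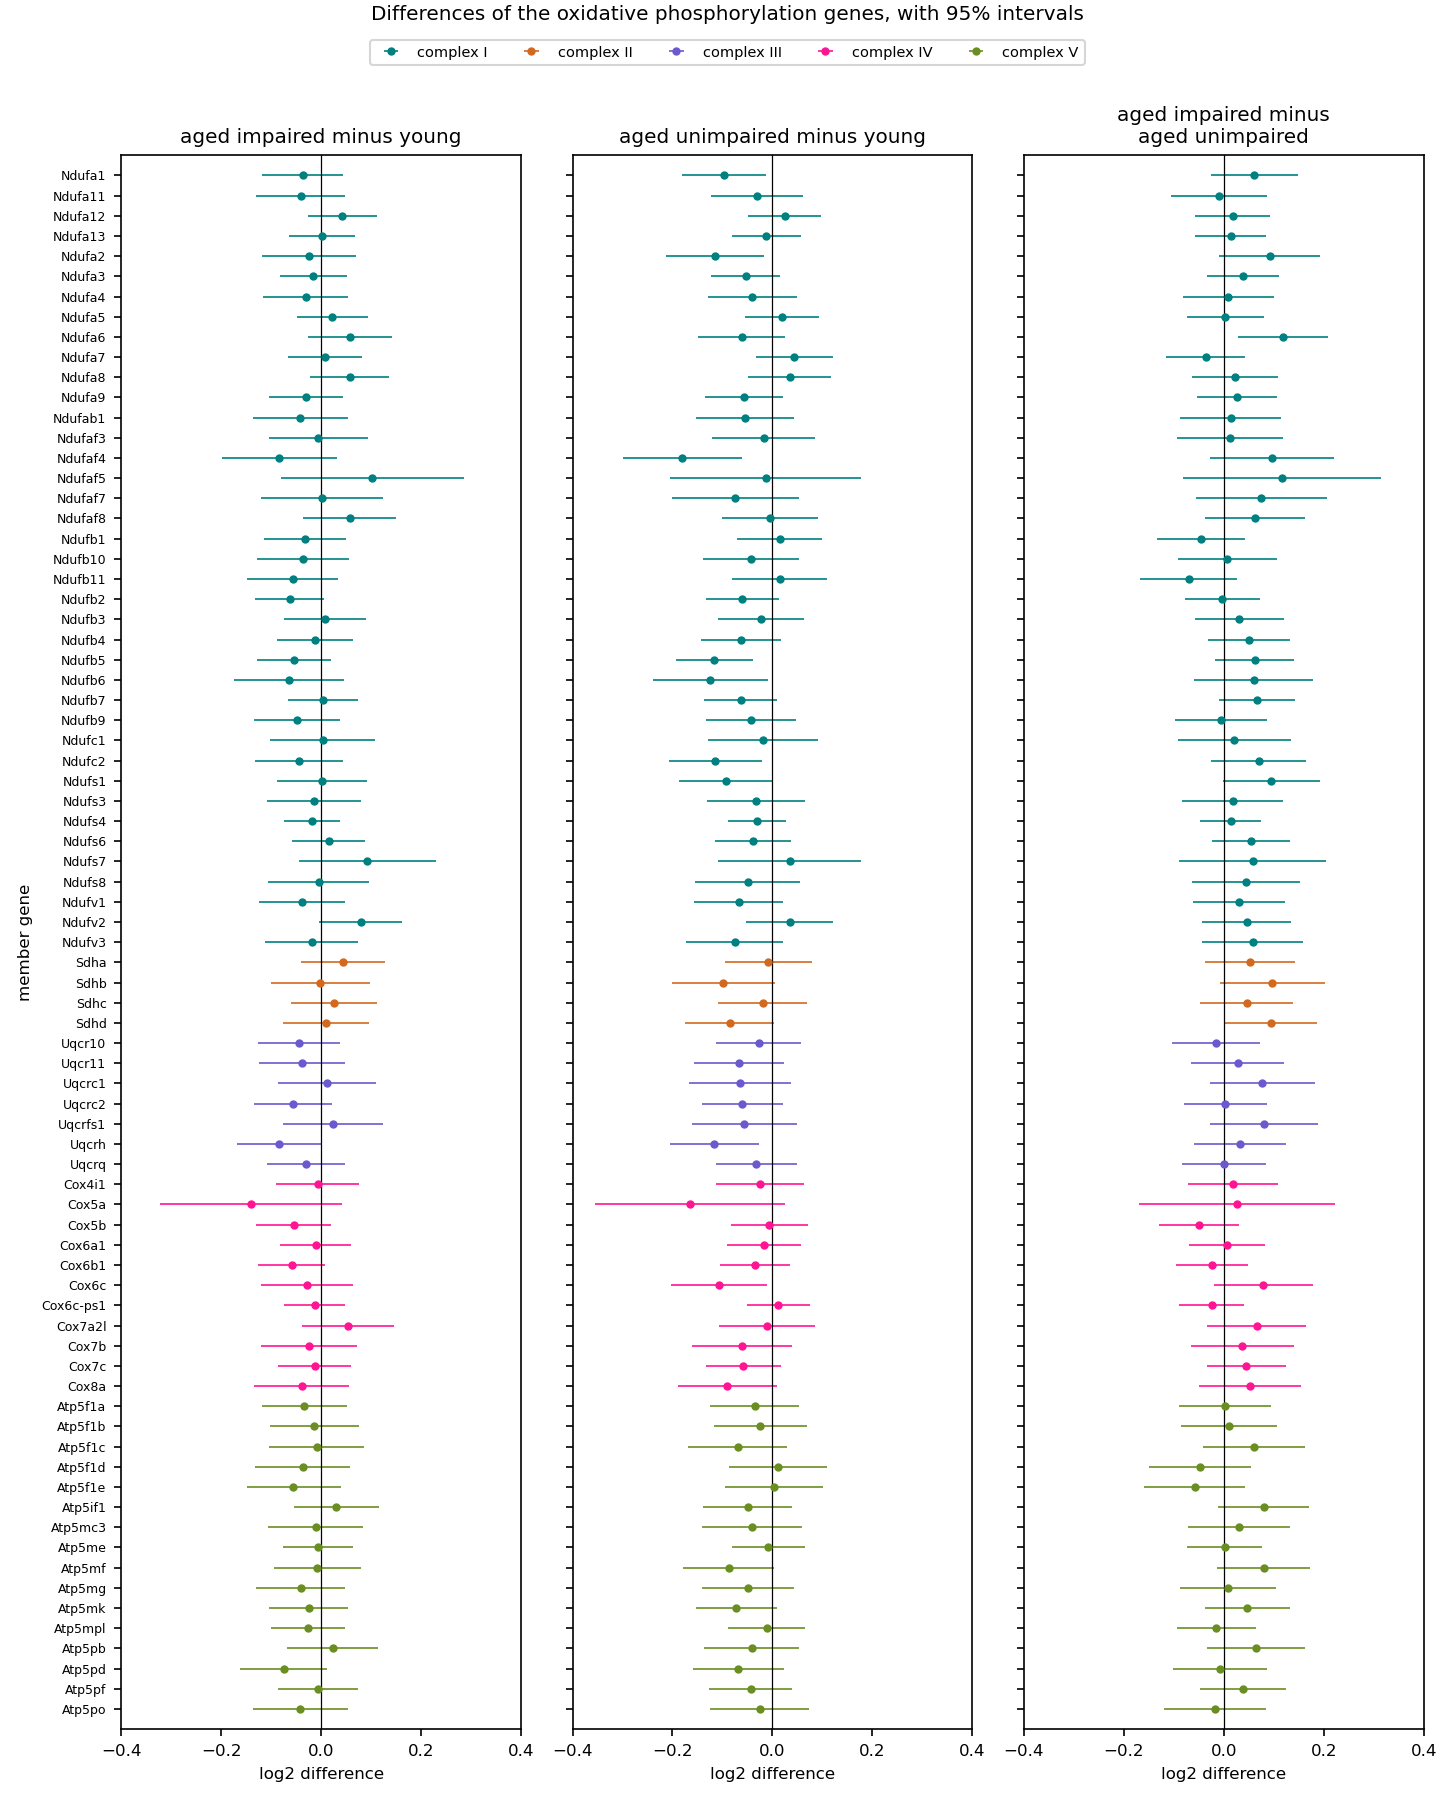
Log2 differences of the 77 genes (points, coloured by complex) with their 95% intervals in aged impaired minus young, aged unimpaired minus young and aged impaired minus aged unimpaired. Most points lie within 0.1 of zero, and the widest intervals are those of Ndufaf5 and Cox5a.

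In aged impaired rats against young rats, the members sat close to zero. The difference was below zero for 53 of 77 members (68.8%), against 44.8% of all probe sets, and the median was -0.0141, against 0.0103 over all probe sets. No member had an unadjusted p below 0.05, against 4.73% of all probe sets with a lower value and 7.69% with a higher one. By complex the median was -0.0141 for complex I, 0.0179 for complex II, -0.0386 for complex III, -0.0242 for complex IV and -0.0193 for complex V. Leaving out each array in turn moved these medians between -0.0266 and -0.0026 for complex I, 0.0032 and 0.0341 for complex II, -0.053 and -0.0158 for complex III, -0.0428 and 0.0015 for complex IV and -0.0333 and -0.0048 for complex V. The value nearest to zero, or past it, for complexes I, III, IV and V came without aged impaired replicate 3, when the median over the members was -0.0009. Below zero were 23 of 39 genes of complex I, 1 of 4 of complex II, 5 of 7 of complex III, 10 of 11 of complex IV and 14 of 16 of complex V. Without the 4 arrays richest in meningeal markers (aged impaired replicates 2, 3 and 7 and young replicate 5) the median over the members was -0.0245, again with 53 of 77 below zero. The members' median was -0.0199 after centring each array on its median and -0.0251 after quantile normalization. In these settings 58 and 61 members were below zero (75.3% and 79.2%), against 47.8% and 50.4% of all probe sets. Among cell type markers in this comparison, 5 of 5 meningeal markers were above zero with a median of 0.16, and 9 of 10 microglial markers with a median of 0.24. CA pyramidal markers were below zero for 4 of 7 with a median of -0.064. Of the endothelial markers 7 of 9 were above zero with a median of 0.060. Only Slco1c1 passed among the endothelial markers, and it fell (-0.55 ± 0.064, adjusted p = 0.000146 in limma). Mpeg1 passed among the microglial and Gfap among the 9 astrocyte markers, both with higher values, while the astrocyte median was 0.0079. Their part in the members' values was not tested.

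In aged unimpaired rats against young rats, more members lay below zero, and so did more of the other probe sets. The difference was below zero for 66 of 77 members (85.7%), against 66.0% of all probe sets, and the median was -0.0425, against -0.0392, but both turned with the scaling: after centring each array on its median the members' median was 0.0123 with 31 below zero, and after quantile normalization 0.0144 with 31 below zero. An unadjusted p below 0.05 with a lower value was found for 8 members (10.4%), against 13.8% of all probe sets, and none with a higher value, against 3.18%. The members' share was thus no larger than that of the whole table. These 8 were Ndufa1, Ndufa2, Ndufaf4, Ndufb5, Ndufb6 and Ndufc2 of complex I, Uqcrh of complex III and Cox6c of complex IV. The median as deposited was -0.0425 for complex I, -0.0525 for complex II, -0.0599 for complex III, -0.0354 for complex IV and -0.0413 for complex V. All genes of complexes II and III were below zero as deposited. Without aged unimpaired replicate 8 the median was -0.0284 for complex II and -0.0124 for complex V. Cell type markers moved in the same comparison. Of the neuronal markers 9 of 12 were below zero with a median of -0.0958, and Tubb3 passed (-0.19 ± 0.046). Of the oligodendrocyte markers 10 of 10 were below zero with a median of -0.32, and Cldn11, Mal and Ugt8 passed. Of the oligodendrocyte precursor markers 3 of 3 were below zero with a median of -0.34, and Pdgfra passed (-0.34 ± 0.075). CA pyramidal markers were below zero for 6 of 7 with a median of -0.25, and none passed. Of the endothelial markers 6 of 9 were below zero with a median of -0.055, and Slco1c1 (-0.50 ± 0.067) and Tek (-0.51 ± 0.087) passed. Of the microglial markers 8 of 10 were above zero with a median of 0.19, and C1qa passed (0.49 ± 0.12). Their part in the members' values was not tested.

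Between the aged groups, most members and most of all probe sets were higher in impaired rats as deposited, the members by less. The difference, aged impaired minus aged unimpaired, was above zero for 62 of 77 members, and 15 (19.5%) were below zero, against 27.6% of all probe sets. The median was 0.0303, against 0.0515 over all probe sets, and this direction too turned with the scaling, with -0.0303 and 56 below zero after median centring and -0.0322 and 59 below zero after quantile normalization. In these 2 settings 72.7% and 76.6% of the members were below zero, against 54.4% and 52.7% of all probe sets, whose medians were -0.0092 and -0.0055. Leaving out aged unimpaired replicate 8 raised the number below zero to 33. An unadjusted p below 0.05 with a higher value was found for Ndufa6 and Sdhd (2.6%), against 12.8% of all probe sets, and for no member with a lower value, against 1.65%. By complex the median was 0.0305 for complex I, 0.0736 for complex II, 0.0275 for complex III, 0.0258 for complex IV and 0.0093 for complex V. Leaving out each array in turn moved these medians between 0.0132 and 0.0463 for complex I, 0.0483 and 0.0854 for complex II, -0.0029 and 0.0488 for complex III, 0.0112 and 0.0508 for complex IV and -0.0228 and 0.0303 for complex V. The sign turned without aged unimpaired replicate 8 for complexes III and V, and without aged impaired replicate 2 for complex V (-0.003). After median centring complex II alone stayed above zero, at 0.0129, and after quantile normalization at 0.0101. Of the cell type markers none passed in limma between the aged groups. Above zero were 12 of 12 neuronal markers with a median of 0.12, 10 of 10 oligodendrocyte markers with a median of 0.24 and 5 of 5 meningeal markers with a median of 1.06. An unadjusted p below 0.05 was found for 3 of the neuronal, 5 of the oligodendrocyte and 4 of the meningeal markers. CA pyramidal markers were above zero for 5 of 7 with a median of 0.28, and 1 of them had an unadjusted p below 0.05. Their part in the members' values was not tested.

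With both aged groups set against young rats, 66 of 77 members (85.7%) were below zero, against 56.8% of all probe sets, and the median was -0.0316, against -0.014. An unadjusted p below 0.05 with a lower value was found for 5 members (6.49%), against 9.53% of all probe sets, and for none with a higher value, against 5.06%. The 5 were Ndufaf4, Ndufb2, Ndufb5, Ndufc2 and Uqcrh. The median was still below zero after median centring (-0.0071, 46 members below zero) and after quantile normalization (-0.0101, 47 members below zero). In these settings the median over all probe sets was 0.0105 and 0.0026. Without aged impaired replicate 3 and aged unimpaired replicate 8, the median was -0.0128. Below zero were then 49 members (63.6%), against 52.9% of all probe sets. These are the aged arrays with the lowest means of the members, so leaving them out raises the aged means by construction. This alternative was added after seeing the data.

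Complex I takes electrons from NADH through FMN and a chain of iron-sulphur clusters. Among its catalytic core, Ndufv1, which binds FMN and NADH, had 10.55, 10.64 and 10.68 (lowest, median and highest) in aged impaired rats, 10.38, 10.63 and 10.66 in aged unimpaired rats and 10.60, 10.64 and 10.76 in young rats. The groups overlapped, and the differences from young rats were -0.038 ± 0.041 for impaired and -0.068 ± 0.043 for unimpaired rats (± moderated standard error here and below). Ndufv2, the partner of Ndufv1 with an iron-sulphur cluster, had 11.00, 11.16 and 11.23 in aged impaired rats, 11.03, 11.11 and 11.14 in aged unimpaired rats and 10.95, 11.08 and 11.20 in young rats. It was above the young mean on 6 of 7 impaired arrays, with a difference of 0.080 ± 0.040 (adjusted p = 0.429 in limma). Ndufs1, the largest subunit of the core, had 10.84, 10.94 and 11.07 in aged impaired rats, 10.77, 10.84 and 10.98 in aged unimpaired rats and 10.81, 10.99 and 11.02 in young rats. It was 0.0026 ± 0.043 from young rats in impaired rats and -0.093 ± 0.045 in unimpaired rats, with an adjusted p of 0.303 in limma.

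Accessory subunits of complex I surround the core and are needed for its assembly and stability. Ndufb5, in the membrane arm, had 11.32, 11.41 and 11.46 in aged impaired rats, 11.23, 11.35 and 11.41 in aged unimpaired rats and 11.39, 11.45 and 11.58 in young rats. The unimpaired and young arrays overlapped only between 11.39 and 11.41. The difference from young rats was -0.12 ± 0.037 in unimpaired rats, below the young mean on 6 of 6 arrays (adjusted p = 0.123 in limma), and -0.055 ± 0.036 in impaired rats (adjusted p = 0.574 in limma). Ndufa1, a short membrane subunit needed for assembly, had 12.28, 12.46 and 12.50 in aged impaired rats, 12.24, 12.38 and 12.42 in aged unimpaired rats and 12.38, 12.49 and 12.53 in young rats. Its difference was -0.097 ± 0.041 in unimpaired minus young (adjusted p = 0.227 in limma). Ndufb2 had 11.24, 11.31 and 11.45 in aged impaired rats, 11.24, 11.35 and 11.36 in aged unimpaired rats and 11.33, 11.38 and 11.45 in young rats. It lay below the young mean on 12 of 13 aged arrays, by -0.062 ± 0.029 for both aged groups (adjusted p = 0.331 in limma).

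Ndufa6, an accessory subunit, was the member with the smallest p between the aged groups. It had 10.17, 10.29 and 10.40 in aged impaired rats, 10.09, 10.15 and 10.34 in aged unimpaired rats and 10.18, 10.23 and 10.27 in young rats. All 7 impaired arrays were at or above the unimpaired mean, although the ranges overlapped, and the difference was 0.12 ± 0.043 (adjusted p = 0.235 in limma). Ndufa7 was measured on 2 probe sets that went opposite ways between the aged groups. The brighter one had 9.99, 10.11 and 10.19 in aged impaired rats, 10.08, 10.11 and 10.25 in aged unimpaired rats and 10.04, 10.10 and 10.14 in young rats, with a difference of -0.036 ± 0.038 between the aged groups. The dimmer one gave 0.13 ± 0.060 for the same difference (adjusted p = 0.322 in limma).

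Ndufaf4, the assembly factor whose promoter is printed above, had the lowest difference of the 77 in unimpaired minus young. It had 8.25, 8.38 and 8.51 in aged impaired rats, 8.06, 8.31 and 8.50 in aged unimpaired rats and 8.42, 8.47 and 8.57 in young rats. The ranges overlapped, with 5 of 6 unimpaired arrays and 6 of 7 impaired arrays below the young mean. The difference was -0.18 ± 0.058 in unimpaired minus young (95% interval -0.30 to -0.060, adjusted p = 0.123 in limma) and -0.084 ± 0.055 in impaired minus young (adjusted p = 0.582 in limma). Ndufaf7, also an assembly factor, had 5.74, 5.94 and 6.15 in aged impaired rats, 5.75, 5.92 and 5.93 in aged unimpaired rats and 5.78, 5.96 and 6.11 in young rats. The ranges overlapped, and 6 of 6 unimpaired arrays were below the young mean. Ndufaf5, another assembly factor and chosen after its values were seen, had the largest standard deviation within groups, 0.18, and Ndufs4 the smallest, 0.032, around a median of 0.073 over the members.

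Complex II, the succinate dehydrogenase that also serves in the TCA cycle, has 4 subunits, all of them measured. Sdha, the flavoprotein that oxidises succinate, had 10.95, 11.04 and 11.18 in aged impaired rats, 10.90, 11.01 and 11.11 in aged unimpaired rats and 10.91, 11.02 and 11.09 in young rats. Sdhb, the iron-sulphur subunit, had 10.83, 10.93 and 11.12 in aged impaired rats, 10.70, 10.86 and 10.92 in aged unimpaired rats and 10.85, 10.96 and 11.03 in young rats. Sdhc, a membrane anchor, had 9.61, 9.64 and 9.77 in aged impaired rats, 9.52, 9.65 and 9.72 in aged unimpaired rats and 9.51, 9.65 and 9.76 in young rats. The ranges of the 3 groups overlapped for each of these genes, least for Sdhb between unimpaired and young rats, with 6 of 6 unimpaired arrays below the young mean.

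Sdhd, the other anchor, had 10.47, 10.53 and 10.60 in aged impaired rats, 10.31, 10.43 and 10.62 in aged unimpaired rats and 10.42, 10.52 and 10.65 in young rats. Its lowest value was on an unimpaired array, and the difference between the aged groups was 0.095 ± 0.044 (adjusted p = 0.326 in limma). A dimmer probe set of Sdhd gave -0.035 ± 0.072 for this difference, so the probe sets did not share a sign. In aged unimpaired minus young the 4 differences were -0.0080 for Sdha, -0.099 for Sdhb, -0.020 for Sdhc and -0.085 for Sdhd, with adjusted p values in limma of 0.315 to 0.945. In aged impaired minus young they were 0.044 for Sdha, -0.0012 for Sdhb, 0.026 for Sdhc and 0.010 for Sdhd.

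Complex III carries electrons from ubiquinol to cytochrome c. Uqcrh, the hinge protein near the site where cytochrome c docks, had 11.51, 11.56 and 11.63 in aged impaired rats, 11.37, 11.58 and 11.64 in aged unimpaired rats and 11.59, 11.66 and 11.74 in young rats. All 13 aged arrays were below the young mean, while the upper ends of both aged ranges reached above the lowest young array. The differences from young rats were -0.084 ± 0.041 in impaired rats (adjusted p = 0.413 in limma) and -0.12 ± 0.043 in unimpaired rats (adjusted p = 0.174 in limma). For both aged groups together the difference was -0.10 ± 0.036 (adjusted p = 0.185 in limma), the smallest p of the members in that comparison.

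Uqcrfs1, the Rieske iron-sulphur protein, had 10.43, 10.59 and 10.70 in aged impaired rats, 10.34, 10.50 and 10.61 in aged unimpaired rats and 10.41, 10.54 and 10.63 in young rats. Uqcrc1, a core protein, had 11.58, 11.66 and 11.84 in aged impaired rats, 11.49, 11.62 and 11.70 in aged unimpaired rats and 11.57, 11.68 and 11.78 in young rats. Both overlapped between all groups, with differences between the aged groups of 0.080 ± 0.052 for Uqcrfs1 and 0.077 ± 0.051 for Uqcrc1. Uqcrc2, the other core protein, had 10.88, 11.01 and 11.08 in aged impaired rats, 10.91, 10.98 and 11.07 in aged unimpaired rats and 10.97, 11.04 and 11.12 in young rats. It differed from young rats by -0.057 ± 0.037 in impaired and -0.060 ± 0.039 in unimpaired rats, and by 0.0033 ± 0.040 between the aged groups. Uqcr11, a small accessory subunit, had 12.14, 12.31 and 12.37 in aged impaired rats, 12.14, 12.27 and 12.37 in aged unimpaired rats and 12.22, 12.33 and 12.42 in young rats, with overlap throughout.

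Complex IV, cytochrome c oxidase, is built around a core encoded in mitochondrial DNA, and its nuclear subunits regulate and stabilise it. Cox4i1, the form of subunit 4 found in most tissues, had 12.99, 13.07 and 13.19 in aged impaired rats, 12.86, 13.08 and 13.17 in aged unimpaired rats and 13.03, 13.09 and 13.13 in young rats. The medians lay close together, and the difference from young rats was -0.0070 ± 0.040 in impaired and -0.025 ± 0.042 in unimpaired rats. Cox6c had 13.03, 13.22 and 13.29 in aged impaired rats, 12.95, 13.14 and 13.23 in aged unimpaired rats and 13.15, 13.24 and 13.27 in young rats. It lay below the young mean on 6 of 6 unimpaired arrays, by -0.11 ± 0.046 (adjusted p = 0.244 in limma), and on 4 of 7 impaired arrays.

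Cox5a, a subunit on the matrix side, had 7.84, 8.24 and 8.38 in aged impaired rats, 7.89, 8.09 and 8.40 in aged unimpaired rats and 8.01, 8.33 and 8.52 in young rats. Its arrays spread more than those of most members, and the difference from young rats was -0.14 ± 0.088 for impaired and -0.17 ± 0.091 for unimpaired rats (95% interval -0.36 to 0.025). A brighter probe set annotated to both Cox5a and a second locus, and so no member, gave -0.052 ± 0.048 and -0.084 ± 0.050. Cox6b1, which faces the intermembrane space, had 11.16, 11.27 and 11.36 in aged impaired rats, 11.24, 11.27 and 11.31 in aged unimpaired rats and 11.24, 11.33 and 11.36 in young rats. Its difference was -0.059 ± 0.032 in impaired minus young (adjusted p = 0.484 in limma).

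Cox6a1, the form of subunit 6a found outside heart and muscle, had 12.48, 12.59 and 12.67 in aged impaired rats, 12.49, 12.58 and 12.64 in aged unimpaired rats and 12.52, 12.60 and 12.63 in young rats. Cox8a, the widely expressed form of subunit 8, had 12.32, 12.58 and 12.67 in aged impaired rats, 12.40, 12.50 and 12.58 in aged unimpaired rats and 12.52, 12.60 and 12.65 in young rats. Unimpaired arrays were below the young mean of Cox8a on 6 of 6 arrays, by -0.091 ± 0.048 (adjusted p = 0.341 in limma), and the ranges still overlapped. Cox7a2l, the supercomplex factor, had 11.25, 11.38 and 11.49 in aged impaired rats, 11.18, 11.33 and 11.39 in aged unimpaired rats and 11.22, 11.34 and 11.42 in young rats. It was the only gene of complex IV with a difference above zero in impaired minus young, 0.054 ± 0.044.

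In the catalytic head of complex V, Atp5f1b, the beta subunit that makes ATP, had 12.79, 12.97 and 13.04 in aged impaired rats, 12.77, 12.96 and 13.02 in aged unimpaired rats and 12.89, 12.97 and 13.09 in young rats. Atp5f1a, the alpha subunit, had 11.94, 12.04 and 12.18 in aged impaired rats, 11.87, 12.08 and 12.10 in aged unimpaired rats and 12.01, 12.08 and 12.16 in young rats. Atp5f1c, the gamma subunit of the rotor, had 12.11, 12.35 and 12.42 in aged impaired rats, 12.10, 12.27 and 12.37 in aged unimpaired rats and 12.23, 12.34 and 12.37 in young rats. The ranges of the 3 groups overlapped for each of the 3 subunits. For each of the 3 subunits, aged unimpaired replicate 8 was the lowest unimpaired array and aged impaired replicate 3 the lowest impaired array. Atp5f1e, the epsilon subunit, had 11.55, 11.66 and 11.93 in aged impaired rats, 11.72, 11.75 and 11.83 in aged unimpaired rats and 11.69, 11.74 and 11.87 in young rats. Its lowest and its highest array were both in impaired rats.

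Of the membrane part and stalk, Atp5mc3, which encodes the ring subunit c, had 12.84, 13.13 and 13.21 in aged impaired rats, 12.93, 13.09 and 13.11 in aged unimpaired rats and 13.03, 13.09 and 13.21 in young rats. Atp5pd, subunit d of the stalk, had 11.66, 11.86 and 11.93 in aged impaired rats, 11.69, 11.89 and 11.91 in aged unimpaired rats and 11.85, 11.94 and 11.98 in young rats. It lay below the young mean on 12 of 13 aged arrays, with -0.075 ± 0.042 in impaired and -0.068 ± 0.044 in unimpaired rats, and neither passed in limma (adjusted p of 0.499 and 0.445). Atp5mf, subunit f, had 12.40, 12.56 and 12.63 in aged impaired rats, 12.40, 12.47 and 12.50 in aged unimpaired rats and 12.44, 12.53 and 12.75 in young rats. Its difference from young rats was -0.0077 ± 0.042 for impaired and -0.088 ± 0.044 for unimpaired rats. Atp5mk, a small membrane subunit, had 12.63, 12.77 and 12.86 in aged impaired rats, 12.62, 12.73 and 12.79 in aged unimpaired rats and 12.76, 12.79 and 12.85 in young rats, with differences of -0.025 ± 0.038 and -0.072 ± 0.039 from young rats in impaired and unimpaired rats.

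Atp5if1, the inhibitor that binds the ATP synthase when the gradient collapses, had 11.25, 11.31 and 11.35 in aged impaired rats, 11.13, 11.19 and 11.35 in aged unimpaired rats and 11.17, 11.25 and 11.44 in young rats. All 7 impaired arrays were above the unimpaired mean, with a difference of 0.080 ± 0.044 (adjusted p = 0.41 in limma). In both aged groups together against young rats, all 16 genes of complex V were below zero as deposited, between -0.071 and -0.0073.

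The complexes varied together from array to array. The mean of the members relative to the mean of all probe sets on the same array was 3.04 ± 0.035 (SD, n = 7) in aged impaired rats, 3.06 ± 0.034 (SD, n = 6) in aged unimpaired rats and 3.06 ± 0.029 (SD, n = 8) in young rats. It lay between 2.98 and 3.10 in impaired, 2.996 and 3.09 in unimpaired and 3.01 and 3.09 in young rats, so the groups overlapped nearly completely. As deposited, without this scaling, the mean of the members lay between 10.73 and 10.90 in aged impaired rats, 10.68 and 10.84 in aged unimpaired rats and 10.80 and 10.87 in young rats, and its SD was 0.055, 0.055 and 0.023. The lowest of these came from aged unimpaired replicate 8, which was the lowest array of its group for 61 of 77 members (79.2%), against 29.7% of all probe sets. Aged impaired replicate 3 was lowest of its group for 47 members (61.0%, against 24.0%), and young replicate 5 for 28 (36.4%, against 10.4%). Aged impaired replicate 2 was the highest of its group for 40 members, against 18.1% of all probe sets.

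**Figure D2:**
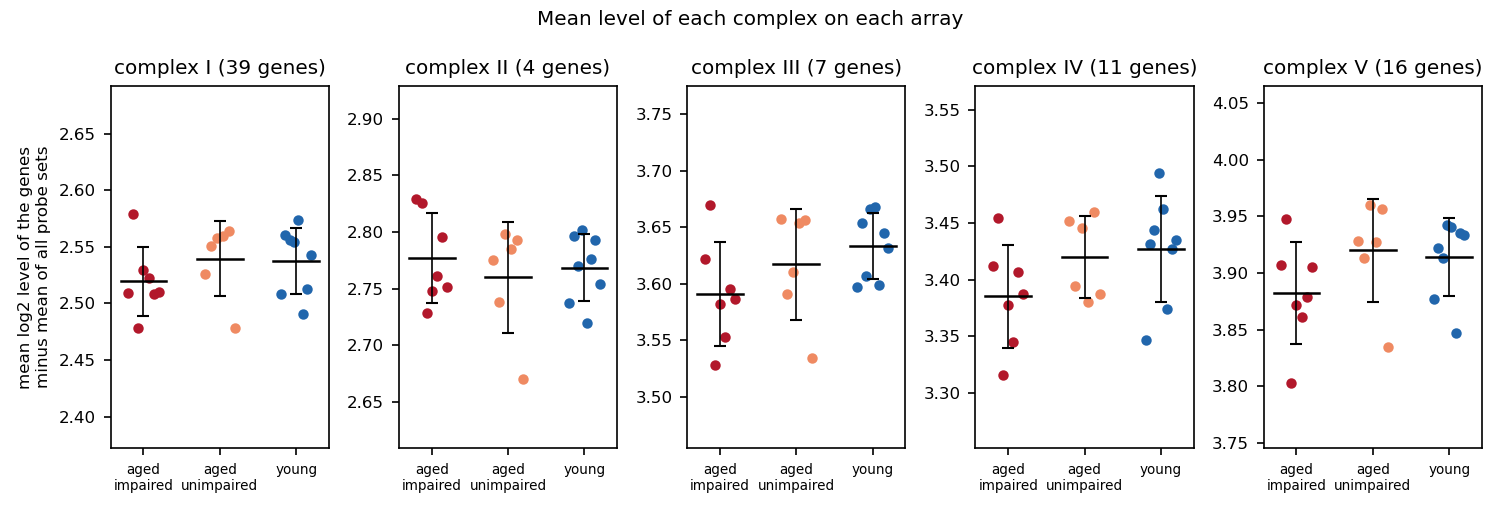
Mean log2 level of each complex relative to the mean of all probe sets on the array, 1 point per array with the group mean and SD in black, for aged impaired, aged unimpaired and young rats. The groups overlap in all complexes, and the lowest aged impaired point is replicate 3 throughout and the lowest aged unimpaired point is replicate 8 except in complex IV.

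The mean of each complex, relative to the mean of all probe sets on the array, was centred on its group mean. These values of 2 complexes correlated across the 21 arrays with a Pearson r between 0.483 (complexes I and II) and 0.861 (complexes III and V). Complexes I and V correlated at 0.815, as did IV and V, and II and IV at 0.561. These points share the array, its RNA and the subtracted mean of all probe sets, and the values are given as a description. Without aged impaired replicate 3 and aged unimpaired replicate 8, an alternative added after seeing the data, the median over the members was -0.0009 in impaired minus young, -0.0274 in unimpaired minus young and 0.0253 between the aged groups. The number of members below zero without them was 41, 54 and 23. As the 2 arrays were chosen for their low means of the members, leaving them out raises both aged means by construction.

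**Figure D3:**
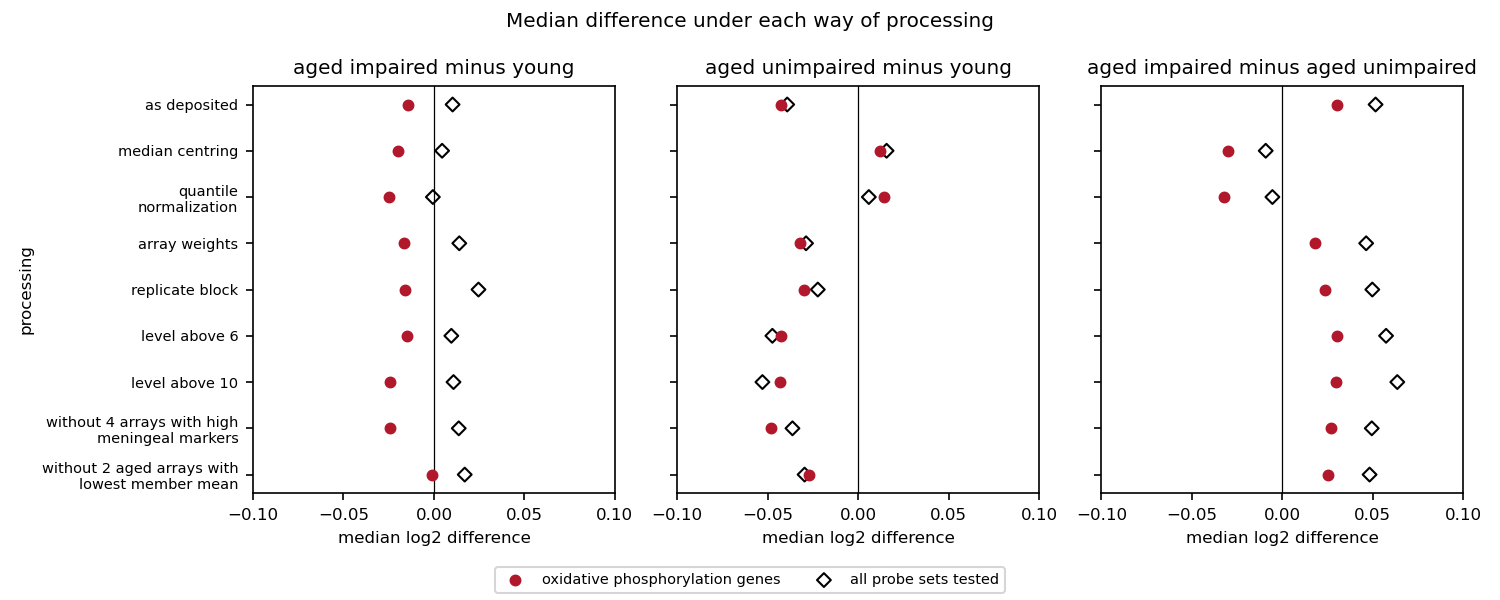
Median log2 difference over the oxidative phosphorylation genes (filled points) and over all probe sets tested (open diamonds) under 9 ways of processing, for 3 comparisons. Median centring and quantile normalization move both to the other side of zero in aged unimpaired minus young and in aged impaired minus aged unimpaired.

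Other genes of mitochondrial energy metabolism were described from 6 lists of 11 to 33 measured genes, and of their genes only Pink1 passed in any comparison. Over all probe sets 0.514% passed in aged impaired minus young and 1.11% in both aged groups minus young. A single call over the 6 lists is near these shares. Pink1 is the kinase that marks damaged mitochondria for removal. It had 9.97, 10.03 and 10.21 in aged impaired rats, 9.88, 9.94 and 10.07 in aged unimpaired rats and 9.66, 9.83 and 9.97 in young rats. All 13 aged arrays were above the young mean, and the impaired and young ranges met at 9.97. It rose by 0.24 ± 0.048 in impaired rats against young rats (18.2%, adjusted p = 0.0249 in limma) and by 0.19 ± 0.042 in both aged groups (adjusted p = 0.0264 in limma). It was 0.14 ± 0.050 in unimpaired minus young (adjusted p = 0.161 in limma) and 0.10 ± 0.051 between the aged groups (adjusted p = 0.375 in limma). The adjusted p for impaired rats ranged from 0.00758 to 0.0918 over 35 settings and passed in 29 of them. Settings that change only which member probe sets are used, or average them, repeat the main value for Pink1. These are all probe sets of the members, subunits only and the mean of probe sets per gene. They are no separate checks of Pink1. It was 0.0918 when the 4 arrays richest in meningeal markers were left out, and 0.0642, 0.057, 0.0511 and 0.052 without aged impaired replicate 2, aged impaired replicate 7, young replicate 6 and young replicate 9. The astrocyte marker Gfap also rose in impaired rats against young rats, by 0.43 ± 0.092 (adjusted p = 0.0407 in limma), and so did the microglial marker Mpeg1, by 0.64 ± 0.094 (adjusted p = 0.00176 in limma). Gfap did not stand for its list, as 5 of 9 astrocyte markers were above zero there with a median of 0.0079. Of the microglial markers 9 of 10 were above zero with a median of 0.24. Their part in the Pink1 value was not tested.

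Of 33 measured assembly factors of the chain none passed. Higd1a, which acts in the assembly of complex IV, had 10.37, 10.51 and 10.57 in aged impaired rats, 10.40, 10.47 and 10.54 in aged unimpaired rats and 10.56, 10.59 and 10.64 in young rats. All 13 aged arrays were below the young mean, and the unimpaired and young arrays did not overlap, as for 0.949% of all probe sets. The difference for both aged groups was -0.12 ± 0.030, just outside the threshold (adjusted p = 0.0516 in limma). It passed in 6 of the 35 alternatives, with an adjusted p down to 0.0321 in limma. Among these were the filters above log2 6 and above log2 10 and no filter, where its difference was unchanged. Coa5, another assembly factor of complex IV, had 10.39, 10.43 and 10.53 in aged impaired rats, 10.21, 10.28 and 10.34 in aged unimpaired rats and 10.29, 10.38 and 10.45 in young rats. The aged groups did not overlap, as for 1.05% of all probe sets, and differed by 0.17 ± 0.038 (adjusted p = 0.129 in limma).

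**Figure D4:**
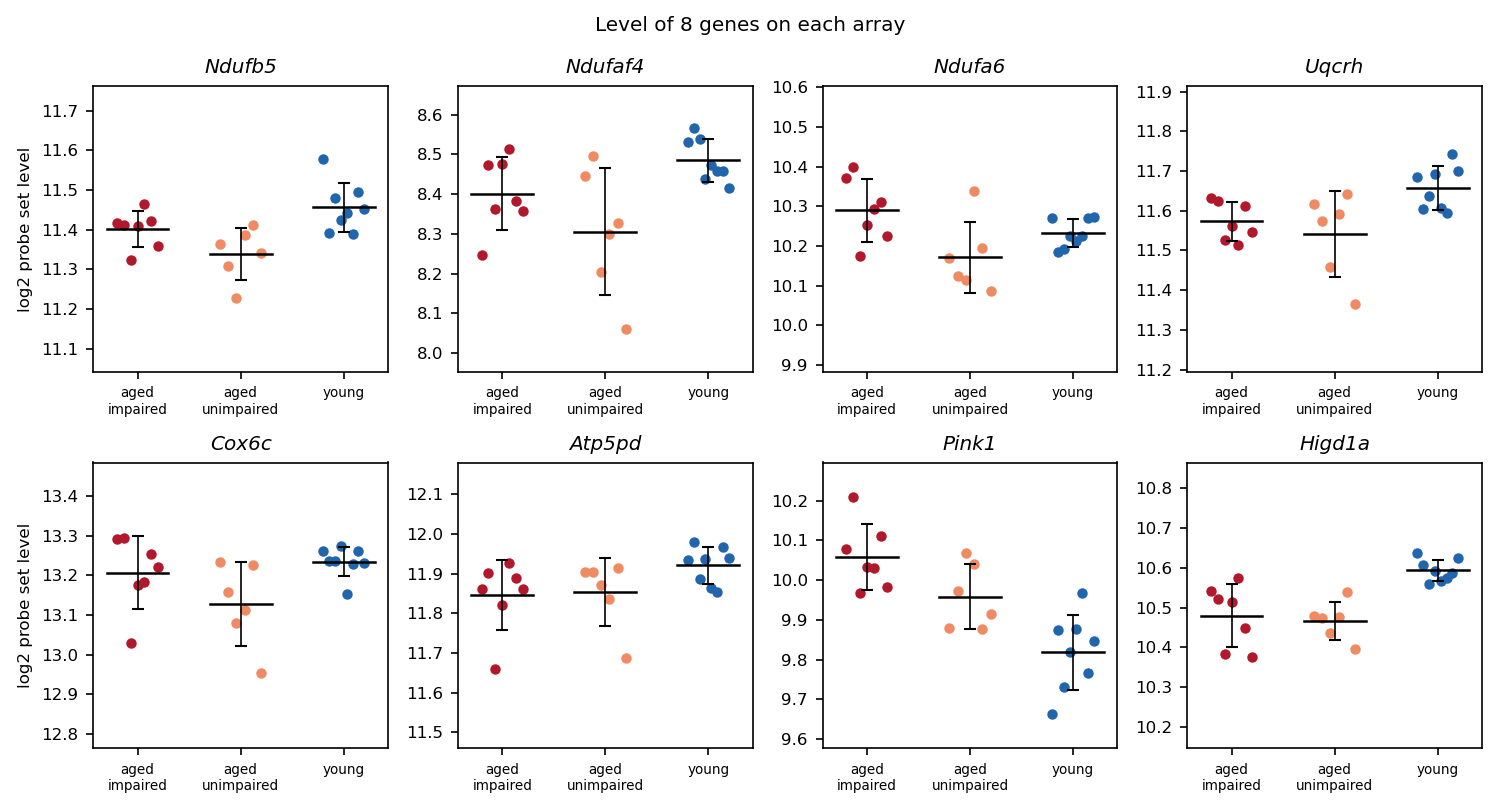
Log2 levels of 6 members (Ndufb5, Ndufaf4, Ndufa6, Uqcrh, Cox6c and Atp5pd) and of Pink1 and Higd1a, 1 point per array with the group mean and SD in black, for aged impaired, aged unimpaired and young rats. The groups overlap for all 6 members, and Pink1 lies above and Higd1a below its young mean on all 13 aged arrays.

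None of the 19 genes of the TCA cycle and pyruvate entry passed. In unimpaired minus young all 19 were below zero as deposited, with a median of -0.0759, against -0.0392 over all probe sets. Idh2, the mitochondrial NADP-dependent isocitrate dehydrogenase, was at -0.16 ± 0.054 there (adjusted p = 0.138 in limma), and Sucla2, a subunit of succinyl-CoA ligase, at -0.19 ± 0.057 (adjusted p = 0.108 in limma). In impaired minus young the median of the list was -0.0047 and 10 of 19 were below zero. None of 16 glycolytic genes passed either, with a median difference from young rats of 0.0388 for impaired and -0.025 for unimpaired rats. Ldhb, a lactate dehydrogenase subunit, was at 0.13 ± 0.046 in impaired minus young (adjusted p = 0.223 in limma), and Pgk1, a kinase that makes ATP in glycolysis, at -0.12 ± 0.045 in unimpaired minus young (adjusted p = 0.176 in limma).

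Of 21 electron carriers and exchangers none passed, with median differences from young rats of 0.0057 for impaired and -0.0293 for unimpaired rats. Etfa, a subunit of the electron transfer flavoprotein, was at 0.17 ± 0.053 in impaired minus young (adjusted p = 0.172 in limma). Dhodh, the pyrimidine enzyme that feeds electrons to ubiquinone, was at -0.23 ± 0.074 between the aged groups (adjusted p = 0.201 in limma). Of 14 genes of mitochondrial biogenesis and mitochondrial DNA none passed. Esrra, a nuclear receptor that regulates respiratory chain genes, had 5.20, 5.46 and 5.69 in aged impaired rats, 5.61, 5.78 and 6.19 in aged unimpaired rats and 5.45, 5.69 and 5.84 in young rats. It differed by -0.33 ± 0.092 between the aged groups (adjusted p = 0.165 in limma), with 7 of 7 impaired arrays below the unimpaired mean. Ssbp1, which binds single-stranded mitochondrial DNA, was at 0.19 ± 0.054 there (adjusted p = 0.165 in limma). Besides Pink1, none of the 11 genes of mitochondrial dynamics and turnover passed, and Opa1, which fuses inner membranes, was at 0.28 ± 0.10 in impaired minus young (adjusted p = 0.252 in limma).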

How the data were processed

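The authors hybridised total RNA of single rats to Affymetrix rat arrays, per the labels' protocols. The deposited values are log2 probe set levels, and the submitters' processing notes name GCRMA without a version. Groups follow the sample titles. Of 24 columns, 3 are empty and were left out, and young replicate 9, listed among the unimpaired arrays, is young by its title. The labels give no batch or date, so none was modelled. The number of arrays limits the precision.

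Non-control probe sets (31042) above log2 4 on at least 6 of 21 arrays were tested (15177). Symbols came from the platform annotation: 11476 of them have 1 symbol, 281 several and 3420 none, and a probe set with several names no member. Where a gene had several probe sets, the one with the highest mean was used. The 3 groups entered 1 fit in limma 3.58.1 (R 4.3.3, lmFit and eBayes, 18 residual degrees of freedom), with p adjusted by Benjamini and Hochberg over all probe sets tested and a threshold of 0.05. P-values measure the spread between arrays labelled as separate animals. Levels of different probe sets are not compared. The replicate numbers of the labels were checked for pairing: 17 same-numbered pairs of arrays correlated at -0.118 to 0.2, 4 of them above 0.1. Of 19 arrays with a same-numbered array, 7 correlated best with their own number. The fit did not treat them as pairs, but these values do not settle whether the numbers mark something shared. Results with a replicate block are given below.

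Named members were, per complex and comparison, the 2 smallest p values, with the highest mean of a complex, members whose probe sets disagree, those nearest to the filter and genes fixed on their role. Of the other lists the genes that passed or had the smallest p values of their list were named. The members, the lists and this rule were chosen with earlier results of these data known. Alternatives were other filters, scalings, probe set rules, weights and fits, and arrays left out. Promoters came from RefSeq GRCr8, matched by gene ID for 70 of 77 members, and motifs other than the NRF1 palindrome and the ETS core were added to the search.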

Additional observations from a re-analysis of the deposited data

Results flagged for a closer look

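Single arrays stood far from the others of their group, by Dixon's criterion at the 95% level, in 19 of 159 groups of arrays (11.9%), where chance gives about 1 in 20. The values tested were those of genes named in the report and of array means of the members and of complexes. They are not independent of each other.

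Aged unimpaired replicate 8 was the low array for Ndufa1 (12.24, others 12.36 to 12.42), Ndufaf7 (5.75, others 5.92 to 5.93), Ndufv1 (10.38, others 10.60 to 10.66) and Ndufv2 (11.03, others 11.11 to 11.14). It was also low for Cox4i1 (12.86, others 13.06 to 13.17), Atp5f1a (11.87, others 12.06 to 12.10), Atp5f1b (12.77, others 12.95 to 13.02), Atp5mc3 (12.93, others 13.05 to 13.11) and Atp5pd (11.69, others 11.83 to 11.91). Its mean of all members relative to all probe sets was 2.996, with the other unimpaired arrays at 3.06 to 3.09, and its relative mean of complex V was 3.83, with the others at 3.91 to 3.96. The mean over all probe sets on this array was 7.6857, the lowest of its group but close to 7.6911 on aged unimpaired replicate 4. Replicate 4 had the lowest median over all probe sets of the group (7.70, against 7.72 on replicate 8) and a relative mean of the members of 3.08. What set replicate 8 apart was not tested.

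Aged impaired replicate 3 was the low array for Atp5f1c (12.11, others 12.31 to 12.42), Atp5mc3 (12.84, others 13.10 to 13.21) and Atp5pd (11.66, others 11.82 to 11.93). It is also among the 4 arrays richest in meningeal markers, whose part was not tested. Among young arrays, replicate 5 was low for Cox6a1 (12.52, others 12.59 to 12.63), replicate 4 was low for Cox6c (13.15, others 13.23 to 13.27), and replicate 6 was high for Atp5f1b (13.09, others 12.89 to 12.98) and Atp5if1 (11.44, others 11.17 to 11.28). Aged impaired replicate 1 was low for Dhodh (5.01, others 5.32 to 5.54).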

How the results depend on the processing

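No member passed in any of the 35 settings in any comparison. The direction of the members' medians depended on the scaling in unimpaired minus young and in impaired minus unimpaired. It stayed below zero in impaired minus young and in both aged groups minus young. Median centring gave, in unimpaired minus young, 31 members below zero and medians of 0.0123 (members), 0.0123 (complex I) and 0.0195 (complex IV), and in impaired minus unimpaired 56 below zero and medians of -0.0303 (members), -0.0301, 0.0129, -0.0331, -0.0349 and -0.0514 (complexes I to V). Quantile normalization gave, in unimpaired minus young, 31 below zero and medians of 0.0144 (members), 0.0147 (complex I), 0.0223 (complex IV) and 0.0166 (complex V), and in impaired minus unimpaired 59 below zero and medians of -0.0322 (members), -0.0313, 0.0101, -0.0341 and -0.0534 (complexes I, II, IV and V). Both settings remove the lower overall level of the unimpaired arrays, the median over all probe sets being -0.0392 as deposited and 0.0157 and 0.0059 after them in unimpaired minus young. Impaired minus unimpaired had 26 members below zero with array weights and 23 without the 2 aged arrays with the lowest means, an alternative added after seeing the data, and 11 to 33 with each array left out in turn. Leaving out each array moved the members' median between -0.0279 and -0.0009 for impaired against young, -0.0508 and -0.0274 for unimpaired against young, 0.0113 and 0.0463 between the aged groups and -0.0408 and -0.022 for both aged groups. The other medians moved by less than the SD between arrays, which is wider than most of them, and the other counts by less than 1.5 times. A filter above log2 10, also added afterwards, left 61 members with medians of -0.0242, -0.0434 and 0.0296 in the 3 comparisons of single groups, against 0.0108, -0.0529 and 0.0635 over all probe sets of that level.

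With a replicate block, calls over all probe sets were 114, 9, 0 and 76 in the 4 comparisons, against 78, 172, 0 and 168 without it, and the members' lowest adjusted p was 0.333 for impaired against young, 0.277 for unimpaired against young and 0.241 between the aged groups. Of 19 arrays with a same-numbered array, 7 correlated best with their own number. In limma, calls over all probe sets were 33, 69, 1 and 148 with fits of 2 groups and 33, 67, 0 and 90 without a filter. Pink1 in impaired minus young had an adjusted p of 0.0547 with fits of 2 groups, and in both aged groups minus young 0.0769 with the replicate block and 0.0541, 0.0626 and 0.0667 without young replicates 2, 6 and 9. Ldhb passed for both aged groups after quantile normalization (0.13, adjusted p = 0.0335). Intervals of the members reach about 0.09 to either side, so differences below this size are not resolved by these numbers of arrays.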

Other observations

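Probe sets whose annotation names more than 1 gene were kept out of the members, and 7 of them name a gene of the chain. None of the 7 passed in limma in any of the 4 comparisons. The one for Ndufa10 or Ndufa10l1 was at -0.10 ± 0.041 in unimpaired minus young (adjusted p = 0.2 in limma) and 0.11 ± 0.042 between the aged groups (adjusted p = 0.235 in limma). The one for Atp5mc1l1 or Atp5mc1, a source of the ring subunit c, was at -0.10 ± 0.037 in impaired minus young (adjusted p = 0.229 in limma) and at -0.065 ± 0.038 for unimpaired against young rats (adjusted p = 0.394 in limma). The one for Cox7a2l2 or Cox7a2 was at -0.041 ± 0.032 and -0.060 ± 0.033 in the same comparisons. The one for Uqcrbl1 or Uqcrb was at -0.012 ± 0.038 and -0.059 ± 0.039.

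Of the 6 members with 2 probe sets above the filter, Ndufv3, a small subunit of complex I, had probe sets of opposite sign in all 4 comparisons. The brighter one differed from young rats by -0.018 ± 0.045 in impaired and -0.076 ± 0.047 in unimpaired rats, and the dimmer one by 0.060 ± 0.048 and 0.079 ± 0.050. None of these values passed.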
